A study of Mus musculus with 4 samples.

Results

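Mature dendritic cells (DCs) marked by Ccr7 were examined in subcutaneous Lewis lung carcinoma (LLC) tumors, an immune-competent mouse model grown in C57/BL6N mice aged 6 to 8 weeks. The members were single-cell barcodes chosen by their UMIs (unique molecular identifiers, the counted RNA molecules) of marker genes, after a filter that kept barcodes in which 200 or more genes were seen and mitochondrial genes took no more than 20% of UMIs. The gate asked for at least 1 UMI of Ccr7 and at least 2 UMIs summed over Fscn1, Ccl22, Cacnb3 and Tbc1d4. It allowed at most 1 UMI of Rhox5, a gene of the LLC tumor cells, no UMI of the T cell receptor complex genes Cd3e, Cd3d and Cd3g, and at most 2 UMIs of the macrophage complement genes C1qa, C1qb and C1qc. It kept 111 of 55058 barcodes. These genes were measured in the same barcodes that they chose, so their own levels are given as a description only.

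The mock group (NT) was 1 library made from 3 pooled tumors without radiation. The irradiated group (RT) was made of RT1, RT2 and RT3, with 1 tumor per library, and every tumor was given 24 Gy in 3 fractions of 8 Gy. Tumors were collected 72 h after treatment and profiled by 3′ single-cell RNA sequencing in microwells. All mice carried the same implanted cell line, and the pooled NT tumors cannot be separated, so the spread between unirradiated tumors is unknown. Values below are in the order NT, RT1, RT2 and RT3 unless stated.

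Conventional DCs take up antigen in tissues and fall into the cDC1 and cDC2 subsets. On maturation they induce the chemokine receptor Ccr7, which guides them along lymphatics to lymph nodes, raise costimulatory molecules for T cells, and reduce phagocytosis. In tumors this state also carries regulatory molecules such as the PD-1 ligand Cd274, and it can be reached from either subset.

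The deposited tables held 10141, 15346, 14994 and 15324 barcodes with 69667759, 78585759, 108699844 and 85660188 UMIs. The RT2 table stood apart in its form: it listed 18605 genes by symbol, against 32285 in each of the other tables, and its highest mitochondrial share was 11.95%, against 91.5% to 97.0% elsewhere. Values were compared over the 18605 shared genes. After the barcode filter 9976, 15029, 14993 and 15060 barcodes remained, and any pair of libraries shared between 182 and 277 barcode sequences.

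The gate held 18, 24, 35 and 34 barcodes with 49534, 48516, 143763 and 82104 UMIs, and median depths of 1911, 1812, 2863 and 1526 UMIs per barcode. A single barcode of 27152 UMIs supplied 18.9% of the RT2 sum. Every interval below covers counting error only.

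The label was checked with genes that the gate did not use. Cd83, a surface marker of DC maturation, had a UMI in 17 of 18, 19 of 24, 32 of 35 and 22 of 34 gate barcodes. It was found in 96 of 122 conventional DC barcodes (described below), 4005 of 5518 macrophage barcodes and 445 of 26502 tumor cell barcodes (at least 3 Rhox5 UMIs). The tumor cell barcodes were deeper, with medians of 8281, 6631, 9492 and 7116 UMIs, so Cd83 alone separates myeloid from tumor barcodes and not these DCs from other myeloid cells. Il12b, the p40 subunit of interleukin 12, was more restricted: 23 of 111 gate barcodes had a UMI, against 0 of 122 conventional DC, 11 of 5518 macrophage and 2 of 26502 tumor cell barcodes. The DC transcription factor Zbtb46 stood at 222, 144, 167 and 122 CPM (UMIs of the gene per 1000000 UMIs of the gate) and the DC growth factor receptor Flt3 at 182, 165, 118 and 109.6 CPM in the gate, against 0, 2.85, 1.00 and 1.44 CPM of Zbtb46 and 0, 0, 0.614 and 0 CPM of Flt3 in macrophages. Siglech, which defines plasmacytoid DCs, had no UMI in the gate. In single barcodes these genes were sparse: 31 of 111 gate barcodes had a Zbtb46 UMI and 26 had a Flt3 UMI. Ptprc, the CD45 gene of all leukocytes, was found in 30 of 111 gate barcodes, against 82 of 122 conventional DC and 3021 of 5518 macrophage barcodes, the lowest share of the 3 populations.

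Members close to the thresholds carried fewer DC features. Of the 90 barcodes with 2 or more Ccr7 UMIs, 81 had a Cd83 UMI and 80 had an MHC class II UMI, whereas of the 21 barcodes with exactly 1 Ccr7 UMI these numbers were 9 and 8. Just outside, 19 barcodes had Ccr7 and a single UMI of the other 4 genes, and 12 of them had Cd83. Of 303 barcodes with no Ccr7 but at least 4 UMIs of the other gate genes, 7 had Cd83 while 177 had Rhox5 and 236 had collagen transcripts. A stricter gate, with at least 2 Ccr7 UMIs and at least 4 UMIs of the other gate genes, kept 78 barcodes (12, 17, 29 and 20), of which 73 had Cd83. It left out 33 barcodes, 14 of them from RT3.

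Markers of other cell types were uneven among the libraries. Fibroblast and endothelial genes summed to 101, 412, 181 and 2704 CPM in the gate and to 0, 66, 117 and 5038 CPM in the stricter gate. RT3 was thus high in both gates: its most abundant such gene in the stricter gate was the collagen Col1a1 with 64 UMIs, and 4 of the 10 listed genes were at 0 there in the wider gate. Tumor cell genes summed to 2019, 3690, 5078 and 4348 CPM (1936, 1247, 3900 and 1648 in the stricter gate, with 1707 in RT2 without its deepest barcode), with S100a6 the most abundant. Monocyte genes summed to 2382, 6060, 5154 and 6163 CPM, led by S100a4, and to 2020, 3412, 2932 and 3048 CPM in the stricter gate, lower in NT than in each RT library in both gates. T and NK cell genes gave 3, 0, 1 and 0 UMIs, neutrophil genes 0, 2, 2 and 2, B cell genes 0, 0, 4 and 2, and all 10 mast cell genes were at 0. The part of fibroblast, tumor and monocyte RNA in the differences between libraries was not tested.

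**Figure D1:**
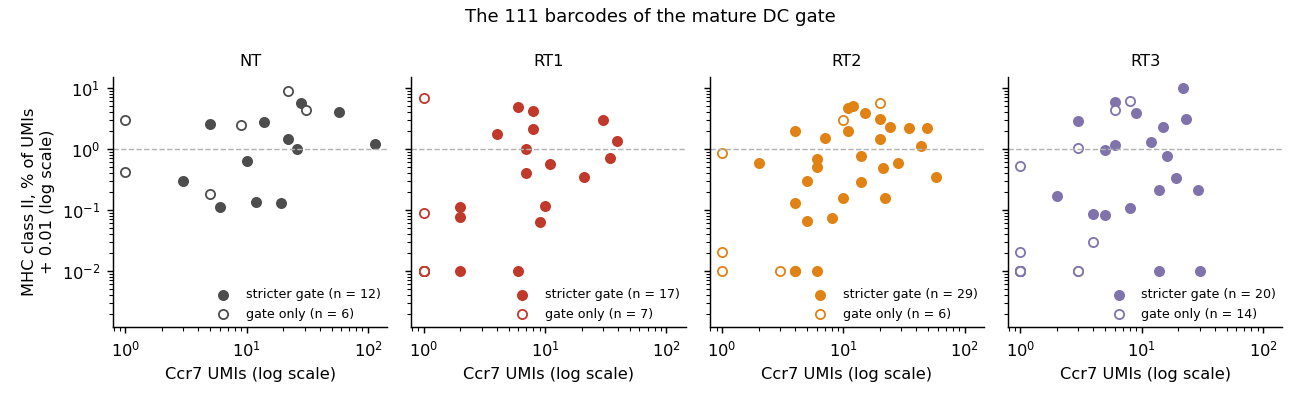
Barcodes of the mature DC gate in each library (NT, RT1, RT2, RT3), with 1 point per barcode. The share of UMIs from 4 MHC class II genes (percent plus 0.01, log axis) is set against Ccr7 UMIs (log axis), filled points mark the stricter gate and the dashed line is at 1%; of the 33 barcodes outside the stricter gate, 14 are from RT3.

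The share of the mature DCs among kept barcodes was 0.180% (95% Clopper-Pearson interval 0.107 to 0.285) in NT, 0.160% (0.102 to 0.238) in RT1, 0.233% (0.163 to 0.325) in RT2 and 0.226% (0.156 to 0.315) in RT3. The NT value lay inside the range of the RT libraries, and all intervals overlapped. The RT mean was 0.206% ± 0.0405 (SD, n = 3), 0.0259 percentage points above NT, which is less than the spread among RT libraries. The difference was not tested, as an exact permutation test of 1 NT against 3 RT libraries cannot go below a two-sided p of 0.5. Among barcodes with at most 1 Rhox5 UMI, which leaves out most tumor cells, the shares were 0.568%, 0.341%, 0.469% and 0.534%, so that NT was the highest of the 4. In the stricter gate NT, at 0.379%, was just below RT2, at 0.389%, by this measure. Mature DCs per conventional DC barcode numbered 0.643, 0.889, 0.648 and 2.62. RT3 was high by this measure, with 34 mature against 13 conventional DC barcodes. Leaving out gate barcodes with any UMI of C1q genes, Rhox5, Cd79a, S100a8 or Nkg7 placed NT above each RT library, at 0.160%, 0.0798%, 0.113% and 0.146% of kept barcodes and at 0.505%, 0.171%, 0.228% and 0.345% of barcodes with at most 1 Rhox5 UMI, where the RT mean was 0.257 percentage points below NT. The direction of the difference between RT and NT thus depended on the gate and on the denominator.

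**Figure D2:**
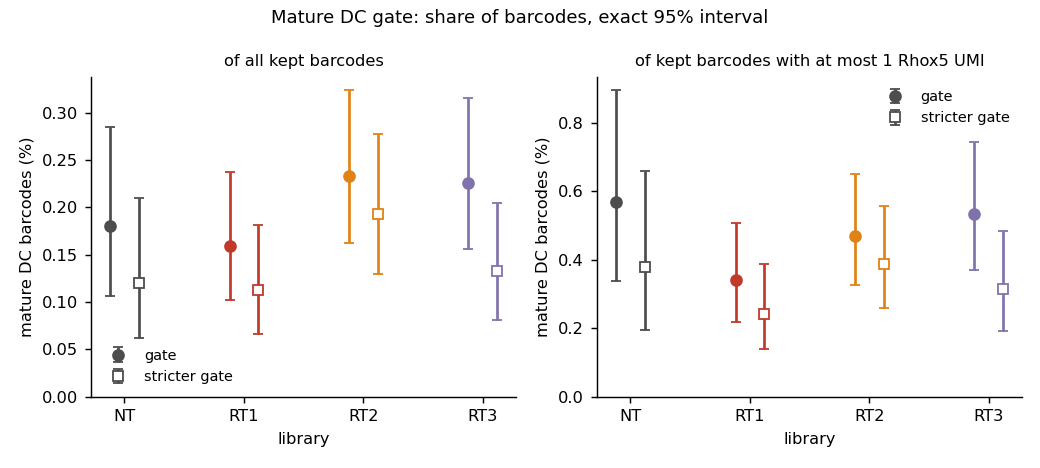
Share of mature DC barcodes in each library, in percent of all kept barcodes (left) and of barcodes with at most 1 Rhox5 UMI (right), for the gate (circles) and the stricter gate (squares), with 95% Clopper-Pearson intervals as bars. The NT value of 0.180% lies between RT1 at 0.160% and RT2 at 0.233% over all kept barcodes, and at 0.568% above the 3 RT libraries over barcodes with at most 1 Rhox5 UMI.

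The first question was how the Ccr7 gate differed from the conventional DCs of the same tumors. Conventional DCs were barcodes without Ccr7 that had at least 2 UMIs summed over Flt3, Zbtb46, Xcr1, Clec9a and Cd209a and met the same exclusions, with 28, 27, 54 and 13 barcodes, median depths of 2473, 1840, 3434 and 2430 UMIs and sums of 101676, 63230, 218808 and 45872 UMIs. UMIs were summed per library and gate, and the sums were compared with edgeR's quasi-likelihood test with library as a block, adjusting p-values over all genes tested by the Benjamini-Hochberg method. Of 1737 genes outside both gates' definitions, 221 (12.7%) were higher and 164 (9.44%) were lower in the mature DCs at an adjusted p under 0.05. The 19 genes used by the gates are not counted. The filter on low counts asked for at least 138 CPM (10 UMIs in the median sum) in at least 2 of the 8 sums. Of the called genes, 149 of 221 higher and 108 of 164 lower met it only with the population in which they were high, so the filter favored genes that differ. Such genes are given below with a fold change and its SE and without a p, and counts and medians over lists describe the genes that were tested. With no filter, 193 of the 221 and 146 of the 164 were called. RT2, the deepest library, weighed most on these numbers, which were 95 higher and 53 lower without it, and 101 genes were lower without RT1. Fibroblast and endothelial genes summed to 13307, 569, 393 and 327 CPM in the conventional DCs, where NT was high with 1353 UMIs, led by the collagen Col1a2 with 507. The part of this RNA in the comparison was not tested.

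Maturation genes that the gate did not use were higher wherever they could be tested. All 15 tested genes of this list of 20 passed in the same direction, with a median log2 fold change of 2.99 against -0.01 over all genes tested. Of the 15, 12 met the filter through the mature DCs alone, among them Il12b and Apol7c with no UMI in conventional DCs. The count and the median are thus a description and not support for the difference. Marcksl1, an actin-linked substrate of protein kinase C, stood at 3149, 3174, 3193 and 1681 CPM in mature DCs and 433, 569, 265 and 239.8 CPM in conventional DCs, without overlap. Its log2 fold change was 2.99 ± 0.24 (SE; edgeR adjusted p = 6.58e-05). Samsn1, an adaptor protein of lymphocyte signalling, reached 787, 1031, 515 and 609 CPM against 49.2, 15.8, 36.6 and 21.8 CPM. The transcription factor Stat4 rose by a log2 fold change of 4.40 ± 0.51 (SE), and the cytokine signalling inhibitor Socs2 by 3.86 ± 0.51 (SE). Cd83 differed less, at 3876, 3628, 2247 and 1413 CPM against 1338, 1392, 1549 and 937 CPM with a log2 fold change of 1.06 ± 0.23 (SE; edgeR adjusted p = 0.00886), and RT3 of the mature DCs lay below RT2 of the conventional DCs. The 5 list genes that were not tested, Il4i1, Nudt17, Slco5a1, Zmynd15 and Clu, had too few UMIs.

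**Figure D3:**
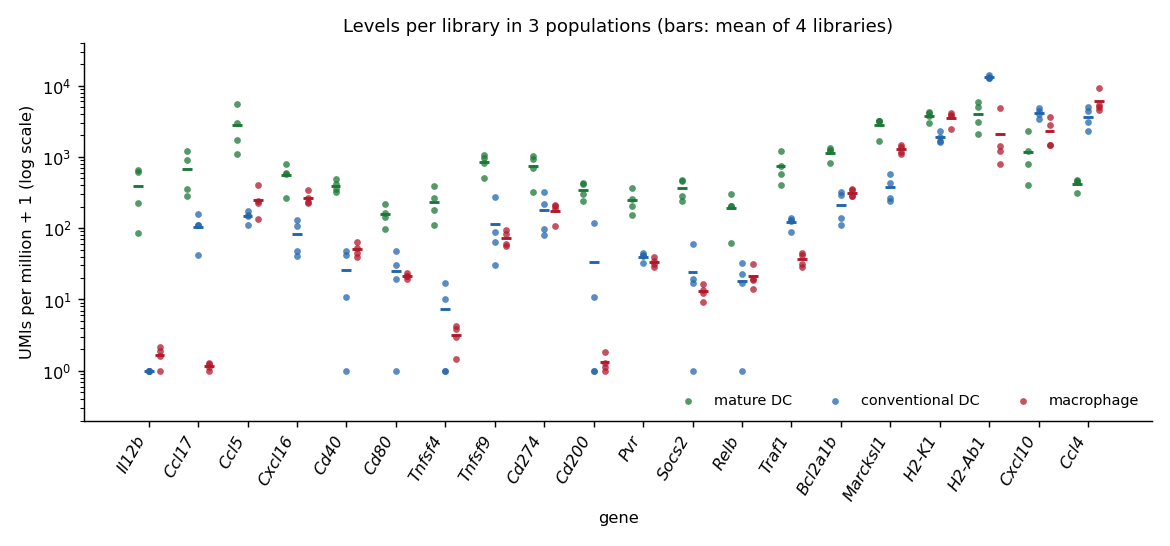
Levels of genes outside the gate in mature DCs, conventional DCs and macrophages, as CPM plus 1 on a log axis, with 1 point per library and a bar at the mean of the 4 libraries. The points of Il12b, Cd40 and Marcksl1 lie above those of the conventional DCs in all libraries, and those of the MHC class II gene H2-Ab1 lie below.

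By rank of fold change, the genes that rose furthest were led by some that conventional DCs lacked. Il12b stood at 606, 227, 661 and 85.3 CPM with no UMI in any conventional DC sum. With the UMIs of the 4 libraries added up, and 3 UMIs in place of 0, it was at least 63.2-fold higher. Single libraries give lower bounds. Arc, an immediate early gene best known from neurons, was at least 21.2-fold higher. Apol7c, an apolipoprotein L family gene of DCs, was at least 18.1-fold higher over the same added UMIs. Mreg, a regulator of organelle transport, rose by a log2 fold change of 5.88 ± 0.69 (SE), and the dual-specificity phosphatase gene Dusp14 by 5.64 ± 0.70 (SE), a call that was lost when barcodes were thinned to 2000 UMIs. The MHC class II family gene H2-Eb2 rose by 5.43, the protease inhibitors Serpinb6b and Serpinb9 by 5.02 and 4.61, and the Bcl-2 family gene Bcl2l14 by 4.98 on the log2 scale, all called and all meeting the filter through the mature DCs alone. The genes that fell furthest were Cd24a (-5.31), which marks cDC1, the septin gene Sept3 (-5.08), the lysosomal hydrolase gene Naaa (-4.47), Ifitm6 (-4.03), Gpr171 (-3.98), the Src-like adaptor gene Sla (-3.93), the integrin Itgam (-3.82) and the adaptor Lat2 (-3.66). The call on Itgam was lost without RT2.

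Of 10 tested costimulatory genes, which give T cells their second signal, 7 rose, 1 fell and 2 did not pass, with a median log2 fold change of 2.37, beside 12.7% of all genes higher. All 7 met the filter through the mature DCs alone, among them Il12b, with no UMI in conventional DCs, and Tnfsf4, with 0, 1, 2 and 0. The count is thus a description and not support for the difference. Cd40, the receptor for the T cell's CD40 ligand, stood at 485, 412, 355 and 317 CPM against 9.84, 47.4, 41.1 and 0 CPM, and no library of one gate overlapped the other. Its log2 fold change was 3.75 ± 0.45 (SE), and 60 of 111 mature DC barcodes had a Cd40 UMI against 12 of 122 conventional DC barcodes. The OX40 ligand Tnfsf4 rose by 4.84 ± 0.61 (SE) and the 4-1BB ligand Tnfsf9 by 3.22 ± 0.45 (SE). The CD28 ligands Cd80 and Cd86 rose by 2.82 and 1.22, and Ebi3, a subunit of interleukins 27 and 35, by 1.92 on the log2 scale. Cd48, a ligand of Cd244, fell by 1.27 on the log2 scale. Cd70, the CD27 ligand, was too low to test, with 3, 0, 6 and 5 UMIs.

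Of 10 tested checkpoint and regulatory genes, which restrain T cells, 5 rose, 1 fell and 4 did not pass, with a median of 1.90. These counts stand beside 12.7% higher and 9.44% lower of all genes. Of the 5 that rose, 4 met the filter through the mature DCs alone, and the 1 that fell met it through the conventional DCs alone. The count is thus a description and not support for the difference. Cd274 stood at 1029.6, 701, 932 and 317 CPM against 78.7, 94.9, 319.9 and 218 CPM, with RT3 of the mature DCs just below RT2 of the conventional DCs, and its log2 fold change was 2.13 ± 0.45 (SE; edgeR adjusted p = 0.00754). Cd200, ligand of an inhibitory myeloid receptor, stood at 424, 412, 299 and 244 CPM against 9.84, 0, 119 and 0 CPM and rose by 2.93 ± 0.65 (SE). The poliovirus receptor gene Pvr, a TIGIT ligand, and the interleukin 1 receptor antagonist Il1rn rose by 2.44 and 2.58 on the log2 scale. The galectin Lgals9 fell by 1.74. The second PD-1 ligand, Pdcd1lg2, had a log2 fold change of 1.67 ± 0.72 (SE) and did not pass. The tryptophan-degrading enzyme gene Ido1 and the cytokine gene Il10 had no UMI in the gate in any library, which allows levels of up to 60.6, 61.8, 20.9 and 36.5 CPM at 3 UMIs.

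Among the chemokine ligands, 3 of 13 tested rose and 3 fell, with a median of 0.06, close to that of all genes. Ccl5, which attracts T cells and NK cells, stood at 1110.3, 5545, 3005 and 1705 CPM against 148, 111, 174 and 153 CPM and rose by 4.06 ± 0.40 (SE; edgeR adjusted p = 0.000158). Ccl17, a ligand of Ccr4 made together with Ccl22 by mature DCs, stood at 283, 1195, 890.4 and 353 CPM against 108, 158, 41.1 and 109 CPM. It rose by 2.82 ± 0.47 (SE), and 42 of 111 mature DC barcodes had a Ccl17 UMI against 13 of 122 conventional DC, 5 of 5518 macrophage and 27 of 26502 tumor cell barcodes. NT was low, and its 14 UMIs of Ccl17 came from 1 of 18 barcodes. Cxcl16, the ligand of Cxcr6, rose by 2.83 ± 0.44 (SE). In the opposite direction, the inflammatory chemokines Ccl4 and Ccl6 fell by 3.05 and 1.81 on the log2 scale, and the Cxcr3 ligand Cxcl10, at 1211, 783, 2323 and 402 CPM against 4042, 4887, 4369 and 3401 CPM, fell by 1.99 (edgeR adjusted p = 0.00184). Ccl19, a ligand of Ccr7 itself, had no UMI in the gate.

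Among chemokine and guidance receptors 3 of 5 tested rose, beside 12.7% of all genes, and these 3 were guidance genes. All 3 met the filter through the mature DCs alone. The count is thus a description and not support for the difference. The plexin Plxnc1 rose by a log2 fold change of 3.71 ± 0.49 (SE), its semaphorin ligand Sema7a by 2.07 and the neuropilin Nrp2 by 2.42. Cxcr4 and Cd44 did not pass, and the inflammatory chemokine receptors Ccr1 and Ccr2 were too low to test.

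Antigen presentation genes were counted by class. Of 10 tested MHC class II genes 4 fell, 1 rose and 5 did not pass, with a median of -1.10. H2-Ab1 stood at 5855, 5091, 3054 and 2071 CPM against 12864, 12968, 13295 and 14148 CPM, without overlap, and its log2 fold change was -1.79 ± 0.25 (SE; edgeR adjusted p = 0.000828). H2-Aa fell by 1.07, H2-Eb1 by 1.14 and the invariant chain gene Cd74 by 1.23 on the log2 scale. Within the mature DCs H2-Aa remained abundant, at 9367, 6184, 4577 and 3532 CPM. Lgmn, a protease of the endolysosome, rose by 1.36 ± 0.42 (SE). Of 15 tested MHC class I and peptide-loading genes 4 rose and 2 fell. H2-K1 rose by 1.04 ± 0.18 (SE; edgeR adjusted p = 0.00324), H2-Q7 by 2.12, the class I transactivator Nlrc5 by 1.61 and H2-D1 by 0.56, and the call on H2-D1 was lost when UMI totals replaced the TMM scaling of edgeR. The endoplasmic reticulum chaperones Calr and Pdia3 fell by 1.09 and 1.13. The classical class I genes share sequence, and the counting could split reads between them.

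Several uptake and subset genes were low in the mature DCs. Of 6 tested uptake genes the mannose receptor Mrc1 and the Fc receptors Fcgr2b and Fcgr3 fell, while Ly75, the endocytic receptor DEC-205, stood at 262, 206, 236 and 219 CPM against 39.3, 15.8, 9.14 and 0 CPM and rose by 3.79 ± 0.51 (SE). Of the cDC1 genes 5 of 6 tested fell, with a median of -3.41. Naaa stood at 20.2, 165, 69.6 and 48.7 CPM against 1357, 1455, 1801 and 1809 CPM, and Wdfy4, needed for cross-presentation, fell by 3.55. The cDC1 transcription factor gene Irf8 did not pass, with a log2 fold change of 0.18 ± 0.27 (SE; edgeR adjusted p = 0.711). Of the cDC2 genes 4 of 6 tested fell, among them the lectin Mgl2, at 121, 474, 132 and 122 CPM against 1013, 1044, 229 and 916 CPM, where RT1 of the mature DCs lay above RT2 of the conventional DCs, and Klf4. The defining genes of the subsets, such as Xcr1, Clec9a and Cd209a, were used to choose the conventional DCs and are not counted here. All 5 cDC1 genes, all 3 uptake genes and 3 of the 4 cDC2 genes that fell met the filter through the conventional DCs alone. Beside 9.44% of all genes lower, these counts are thus a description and not support for the difference.

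The NF-kB pathway, which activates transcription downstream of CD40 and Toll-like receptors and feeds back through its own inhibitors, was higher at most members: 13 of 16 tested rose and 1 fell, with a median of 1.57. Of the 13, 7 met the filter through the mature DCs alone. Among the transcription factor subunits, Relb stood at 202, 206, 299 and 60.9 CPM against 0, 15.8, 32.0 and 21.8 CPM and rose by 3.47 ± 0.59 (SE). Nfkb2 rose by 1.86 ± 0.47 (SE), Rel by 1.26 and Nfkb1 by 0.91 on the log2 scale. Among the inhibitors, Nfkbia stood at 6258, 7606, 4619 and 3069 CPM against 2970.2, 2229.9, 1659 and 1461 CPM, with no overlap, and rose by 1.40 ± 0.18 (SE; edgeR adjusted p = 0.000667), and Tnfaip3 rose by 1.00. The signalling adaptor Traf1 rose by 2.60 ± 0.29 (SE) and the 4-1BB receptor gene Tnfrsf9 by 5.62 ± 0.48 (SE). Survival genes of the Bcl-2 family moved both ways, since Bcl2a1b and Bcl2a1d rose by 2.52 and 1.56 while the death-promoting Bcl2l11 fell by 1.16. Bcl2a1b and Bcl2a1d are near-identical copies, so their split is uncertain.

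Promoters of 3 members are shown since the factor and its inhibitor are themselves members of the list and carry a match to the NF-kB consensus, searched by that motif on both strands. Sequences run 5′ to 3′ on the gene's strand from 250 bases before to 50 bases after the RefSeq start (build GRCm38.p6), with matches in capitals. Nfkbia is at chr12:55492598-55492897 (minus strand), Nfkb2 at chr19:46304487-46304786 (plus strand) and Rel at chr11:23770920-23771219 (minus strand).
Nfkbia: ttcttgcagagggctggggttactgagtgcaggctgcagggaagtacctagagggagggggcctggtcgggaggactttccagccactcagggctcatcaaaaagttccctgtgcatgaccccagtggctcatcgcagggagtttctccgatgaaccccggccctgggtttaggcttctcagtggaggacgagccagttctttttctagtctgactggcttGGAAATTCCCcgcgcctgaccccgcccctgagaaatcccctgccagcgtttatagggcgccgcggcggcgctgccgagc
Nfkb2: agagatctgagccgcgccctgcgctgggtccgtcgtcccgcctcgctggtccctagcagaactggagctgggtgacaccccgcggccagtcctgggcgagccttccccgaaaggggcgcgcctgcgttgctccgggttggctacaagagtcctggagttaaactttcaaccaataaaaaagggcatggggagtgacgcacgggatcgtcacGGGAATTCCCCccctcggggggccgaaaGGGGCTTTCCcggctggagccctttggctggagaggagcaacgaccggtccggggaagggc
Rel: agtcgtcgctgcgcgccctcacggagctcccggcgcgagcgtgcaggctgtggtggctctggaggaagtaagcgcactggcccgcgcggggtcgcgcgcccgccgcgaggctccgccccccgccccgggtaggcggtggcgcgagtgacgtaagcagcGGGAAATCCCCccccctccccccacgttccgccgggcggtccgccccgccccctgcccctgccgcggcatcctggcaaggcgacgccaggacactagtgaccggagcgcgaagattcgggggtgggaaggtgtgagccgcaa
Nfkbia had 1 match, starting 29 bases before the start site. Nfkb2 had 3 matches and Rel had 2 overlapping ones. Of the NF-kB list, 6 of the 20 promoters found (30%) held a match. This stands beside 8.222% of all 27025 promoters of that length and 11.39% of genes tested against conventional DCs. Of the 6, Nfkbia, Nfkb2 and Rel were called higher than in conventional DCs, and Bcl3, Nfkbie and Tnip1 were not. Genes higher than in both conventional DCs and macrophages held one in 11.94% of 134 promoters, near the 11.39% of genes tested. None of the 13 promoters of maturation genes outside the gate did. A match describes the letters only.

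Cytoskeletal genes, which shape dendrites and migration, were split, with 7 of 15 tested higher, 1 lower and a median of 0.09. Marcks stood at 2806, 1628, 2268 and 1255 CPM against 344, 411, 425 and 349 CPM and rose by 2.39 ± 0.25 (SE; edgeR adjusted p = 0.000259). The unconventional myosin Myo1g rose by 2.13, Swap70, which binds actin and steers DC migration, by 2.00, and the actin-binding Lsp1 by 1.26. Thymosin Tmsb4x, at 14253, 24734, 19838 and 11229.7 CPM, rose by 0.87. Coro1a fell by 1.37. Actb was high in RT2 in every population, at 7369, 8884, 19275 and 4616 CPM in mature DCs and 3639, 5883, 15118 and 4186 CPM in conventional DCs, and it was also high there over all kept barcodes, at 1733, 2269, 6106 and 1777 CPM.

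The other lists gave the following counts against conventional DCs. They stand beside 12.7% higher and 9.44% lower of all genes tested, and with so few genes a count near these shares is no result about a list. Of 15 interferon response genes 2 rose, with Irf1 among them, and Iigp1 and Zbp1 fell. Of 8 cell cycle genes 3 fell, Pcna, Stmn1 and Top2a. Of 6 p53 targets Gadd45a rose and Btg2 fell. Of 5 pan DC genes Id2 rose and Cd24a, Itgax and Spi1 fell, and of 9 monocyte genes 1 rose and 3 fell. None of 5 tumor cell and 4 fibroblast genes passed.

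**Figure D4:**
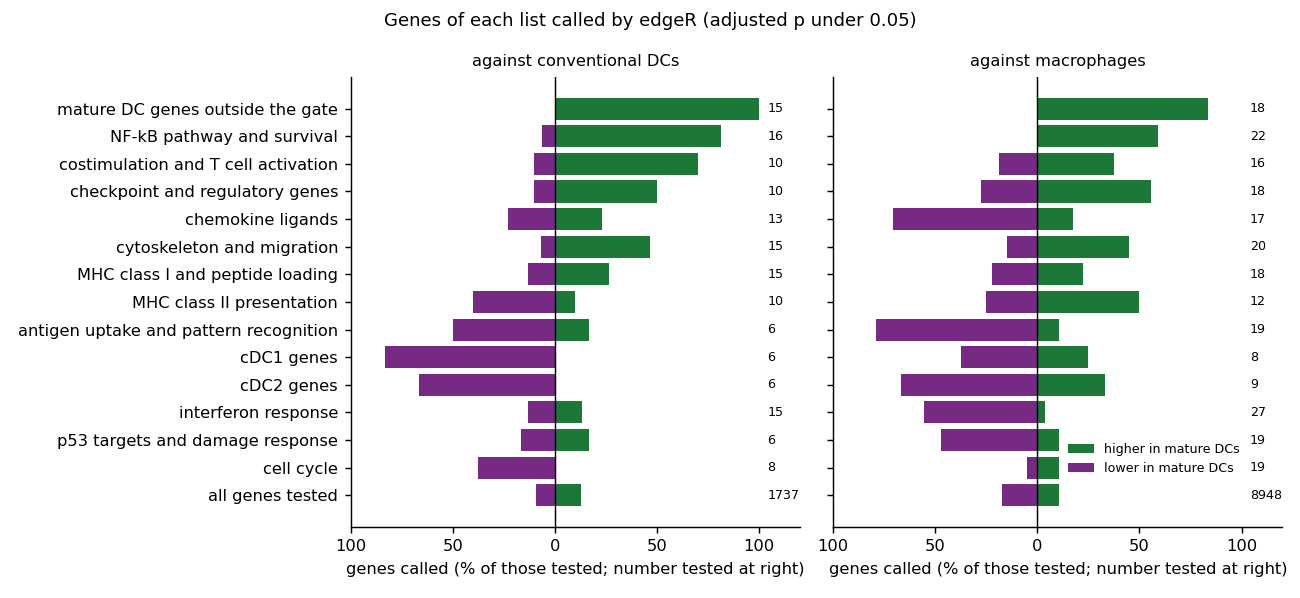
Percent of the tested genes of each list that edgeR called higher (right of 0) or lower (left of 0) in mature DCs, against conventional DCs (left panel) and macrophages (right panel), with the number tested at the right edge and TMM scaling throughout. All 15 tested maturation genes were higher against conventional DCs, beside 12.7% of all genes; against macrophages the 968 genes higher and 1550 lower became 1710 and 856 with UMI totals.

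Against macrophages, barcodes with at least 10 UMIs of the C1q genes and no Ccr7 (432, 1877, 2297 and 912 barcodes), the direction of moderate differences depended on the scaling. Of 8948 genes tested, 968 (10.8%) were higher and 1550 (17.3%) lower in the mature DCs with TMM scaling, so 38.4% of calls were higher. With UMI totals in its place the median over all genes moved by 0.54 on the log2 scale, 1710 genes were higher and 856 lower, and 66.6% of calls were higher. Without RT2, 492 genes were higher with TMM. Genes named below were called in the same direction under both scalings unless stated. The medians of the lists are given with TMM, beside -0.17 for all genes. The filter, at 8.95 CPM here, was met only with the population in which they were high by 458 of the 968 genes higher and 427 of the 1550 lower, which are again given without a p, and with no filter 711 and 1550 of them were called. Counts and medians over lists are again descriptions.

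Maturation genes were again high, with 15 of 18 tested higher, none lower and a median of 2.89, and 5 of the 15 met the filter through the mature DCs alone. Ccl17, with at most 0.288 CPM in any macrophage sum, rose by a log2 fold change of 11.36 ± 0.44 (SE). Cd200 rose by 8.91, Il12b by 8.51, Mreg by 8.46, H2-Eb2 by 8.73, Scin, an actin-severing protein, by 7.82, Bcl2l14 by 7.68, the receptor-modifying protein gene Ramp3 by 7.63 and Il4i1, a secreted amino acid oxidase, by 7.48. Tmem150c had no macrophage UMI and was at least 488-fold higher. Strip2 and Slc4a8 completed the list by rank, at 8.57 and 8.52. Ly75 (6.68) and Sema7a (6.89) were high in this comparison too.

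Chemokine ligands were mostly lower than in macrophages. Of 17 tested ligands 12 were lower in the mature DCs and 3 higher, with a median of -2.89 (11 lower and 4 higher with UMI totals). Ccl8, a monocyte attractant, stood at 0, 0, 6.96 and 60.9 CPM in mature DCs and 1812, 6587, 4431 and 6172 CPM in macrophages, a log2 fold change of -8.59 ± 0.39 (SE). Ccl6 (-6.73), Ccl7 (-5.28), Ccl12 (-6.45), Ccl3 (-4.25) and Ccl2 (-2.89) were lower as well. Ccl5 was higher by 2.82 ± 0.25 (SE; edgeR adjusted p = 1.27e-27), as were Ccl17 and the membrane-bound Cx3cl1 (4.34).

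Phagocytic and macrophage identity genes were nearly absent from the gate. Of 19 tested uptake genes 15 were lower, with a median of -5.21, or -4.36 when genes at 0 were placed at their bound, while Ly75 and the phosphatidylserine receptor Timd4 were higher (14 lower and 3 higher with UMI totals, which added Axl). All 9 tested macrophage markers, the C1q genes left out, were lower (median -8.20, or -6.89 with bounds). Of these, 5 met the filter through the macrophages alone, as did 8 of the 15 uptake genes, so these counts are not support for the difference. The folate receptor Folr2 had no UMI in the gate and was at least 118-fold lower, the F4/80 gene Adgre1 at least 56.5-fold, the stress cytokine Gdf15 at least 47.5-fold, and Cd300ld and Cd93 at least 28.8-fold and 26.3-fold. Ms4a8a, Pilra and Lmo2 were also at 0 in the gate, at least 24.3-fold, 17.5-fold and 14.95-fold lower. Il10 had no UMI in the gate against 108, 44.4, 76.4 and 59.9 CPM in macrophages.

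MHC class II genes were higher than in macrophages at 6 of 12 tested genes and lower at 3, the proteases Ctss and Lgmn and the reductase Ifi30, of which Ifi30 was not called with UMI totals. The macrophage values were uneven, since H2-Aa stood at 7051, 1062, 1759 and 1779 CPM, high in NT and low in each RT library, whereas mature DCs held 9367, 6184, 4577 and 3532 CPM. Of 27 interferon response genes 15 were lower and 1 higher with TMM, and 9 lower and 2 higher with UMI totals. Of 19 p53 targets 9 were lower and 2 higher with TMM, and 6 and 3 with UMI totals. Mdm2, the p53 ubiquitin ligase, was lower under both, at 141, 124, 83.5 and 109.6 CPM against 199, 393, 514 and 799 CPM. All 6 tested fibroblast genes were higher than in macrophages, with a median of 2.35, and of the list's UMIs in the gate 5, 20, 26 and 222 came from NT, RT1, RT2 and RT3.

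Costimulatory and NF-kB genes were compared with macrophages as well. Of 22 NF-kB genes 13 were higher and none lower (17 and none with UMI totals), with a median of 0.97, among them Tnfrsf9 (3.11), Traf1 (3.72), Relb (2.66) and Nfkb2 (1.61). Of 16 costimulatory genes 6 were higher and 3 lower (10 and 3 with UMI totals). Cd40, at 62.6, 38.8, 52.4 and 43.7 CPM in macrophages, Cd80, Il12b, Il6, Tnfsf4 and Tnfsf9 were higher, and Cd48, Il18 and the adhesion molecule Vcam1 were lower. Of 18 checkpoint genes 10 were higher and 5 lower (10 and 4), with Cd274 (1.49), Pdcd1lg2 (1.40) and Aldh1a2 among the higher and Il1rn and Socs3 among the lower. The cDC1 factors Irf8 (1.78) and Batf3 (2.08) and the cDC2 factor Irf4 (3.86) were all higher in the mature DCs.

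For several lists the counts against macrophages depended on the scaling. They stand beside 10.8% higher and 17.3% lower of all genes tested with TMM, and 1710 higher and 856 lower of 8948 with UMI totals. A count near these shares is no result about a list. MHC class I genes were higher at 4 and lower at 4 of 18 with TMM, and 9 and 1 with UMI totals. Cytoskeletal genes were higher at 9 and lower at 3 of 20, and 13 and 1 with UMI totals. Receptor genes were higher at 4 and lower at 8 of 15, and 6 and 6. Within that list the inflammatory chemokine receptors Ccr1 and Ccr2 were lower under both scalings, with Ccr1 at 0, 41.2, 0 and 0 CPM against 254, 260.4, 189 and 189 CPM. Cell cycle genes were higher at 2 and lower at 1 of 19, and 9 and none.

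Transcripts were then ranked by the share of their UMIs found in this gate, which held only 0.0715%, 0.0624%, 0.132% and 0.0965% of the kept UMIs. Among genes with at least 100 UMIs over all libraries, Il12b had 73.1% ± 22.4 (SD, n = 4 libraries) of its UMIs in the gate, with 96.8%, 50%, 87.2% and 58.3% per library. Bcl2l14 followed with 51.0%, Ccl17 with 30.4%, Apol7c with 28.2%, the metalloprotease Mmp25 with 24.6%, Timd4 with 24.0%, the retinoic acid synthesising enzyme Aldh1a2 with 21.7%, the inhibitory receptor Btla with 15.2%, Tnfsf4 with 14.5% and Ramp3 with 13.95%. Several of these were uneven over the libraries. Aldh1a2 stood at 0% in NT and 42.1% in RT3, Apol7c between 7.89% in RT2 and 52.2% in RT1, Timd4 between 5.26% in RT1 and 50% in NT, and Tnfsf4 between 6.50% in RT1 and 32.8% in NT. Btla and Timd4 were not particular to the mature DCs. Btla stood at 101, 0, 90.4 and 60.9 CPM in the gate against 29.5, 15.8, 123 and 131 CPM in conventional DCs. Timd4 stood at 202, 20.6, 55.6 and 60.9 CPM against 0, 15.8, 64.0 and 109 CPM. For comparison, the gate's own genes Ccl22 and Ccr7 had 83.8% and 44.8%, which the gate fixed. As 902 kept barcodes had a Ccr7 UMI, most Ccr7-positive barcodes lay outside: 475 had more than 1 Rhox5 UMI and 130 had a Cd3 UMI, groups that overlap.

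The last question was whether the mature DCs differed between irradiated and mock tumors. A fit over 1 NT and 3 RT libraries would take its spread from the RT libraries alone and was not run, and genes were named by size: a log2 ratio over NT of at least 1, or at most -1, in each of the 3 RT libraries, computed on CPM with 1 UMI added among 1325 genes with at least 40 UMIs. By this rule 68 genes (5.13%) were higher and 34 (2.57%) lower in RT. In the stricter gate 65 (4.91%) and 25 (1.89%) of the same genes met it, and 34 (2.57%) and 13 (0.981%) met it in both gates. Of the 68 higher genes 44 had at most 3 UMIs in NT. The minimum of 40 UMIs was counted over all libraries, of which 3 are RT, so a gene high in RT passed it more easily than a gene high in NT, and nothing is read from the larger number of higher genes.

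Icam1, the adhesion molecule that binds LFA-1 on T cells, was the 1 gene of 8 costimulatory genes to meet the rule. It had 2, 28, 76 and 24 UMIs, or 40.4, 577, 529 and 292 CPM, and was higher in each RT library. The RT sum was 11.6-fold above NT with a counting interval of 3.13 to 96.4, and the mean log2 ratio was 2.93 ± 0.52 (SD, n = 3), or 3.05 in the stricter gate. In barcodes thinned to 1000 UMIs, Icam1 was found in 0 of 15, 8 of 21, 11 of 31 and 6 of 23, against 1 of 18, 13 of 24, 21 of 35 and 14 of 34 without thinning. In other populations the mean log2 ratio of Icam1 was 2.04 in conventional DCs, where RT2 stood apart (found in 3 of 28, 4 of 27, 30 of 54 and 1 of 13 barcodes), and 2.09 in macrophages, and 1022 of 26502 tumor cell barcodes had a UMI.

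Other genes higher in RT included Cxcl3, a neutrophil chemokine, with 0, 13, 26 and 29 UMIs, at least 4.42, 2.99 and 5.83 times NT in RT1, RT2 and RT3. The transcription factor Tcf4 had 0, 7, 24 and 17 UMIs, at least 2.38, 2.76 and 3.42 times NT. In the stricter gate it had 0, 5, 17 and 3 UMIs, of which RT2 kept 10 without its deepest barcode, a barcode with 1 Rhox5 UMI. Tumor cells held Tcf4 at 201, 161, 183 and 185 CPM, and tumor cell genes were higher in each RT library in the gate, but in none of them in the stricter gate without the deepest RT2 barcode, as described. The part of tumor RNA in this value was not tested. The plasminogen activator Plat was at least 4.42, 2.87 and 3.42 times NT. Mxra8, Ppic and Snx9 met the rule in both gates but not in the stricter gate without the deepest RT2 barcode. Hist1h2bc had 1 UMI in NT, and its RT sum was 11.9-fold above NT (2.07 to 478). Plod2, Plau, Slpi and Nid1, genes of matrix and its turnover, met the rule in the wider gate alone. Fibroblast and endothelial genes were high in RT3 in both gates, as described, and their part in these values was not tested. S100a4, a monocyte marker here, had a mean log2 ratio of 1.70 in the gate and 0.43 in the stricter gate, and it was also higher in RT tumor cells, at 3469, 7712, 8136 and 7123 CPM.

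Among genes lower in RT, the immunoproteasome subunit Psmb8 stood at 666, 103, 320.0 and 158 CPM with a mean log2 ratio of -1.85 ± 0.71 (SD, n = 3). Psmb9, another immunoproteasome subunit, was higher in the summed RT libraries but did not meet the rule of size. It had 1 UMI in NT and 53 in RT, and its RT sum was 9.57-fold above NT with a counting interval of 1.64 to 385. Il1b, the inflammatory cytokine, stood at 4462, 969, 786 and 1072 CPM, with a mean of -2.24, but -1.06 and no call in the stricter gate. Ppp1r15a, a regulator of the stress response, had -2.44, the nuclear lamin gene Lmna -2.20, Bcl2l14 -2.49 and Ifitm1 -2.53. Scin had -3.44. Its 39 NT UMIs came from 3 of 18 barcodes, and the 36 of Bcl2l14 from 4. Nr4a2, Malt1 and Ndel1 met the rule in the wider gate alone. The NF-kB subunit Rel was also lower, at 1332, 536, 271 and 426 CPM, with a mean of -1.73, but -0.87 and no call in the stricter gate.

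Lists of a few genes are read here beside the 5.13% higher and 2.57% lower of all genes, shares at which most such lists would hold no gene or a single one. None of the 15 maturation genes met the rule, and their median log2 ratio was -0.37 (0.09 in the stricter gate) beside -0.06 for all genes. Cd274 stood at 1029.6, 701, 932 and 317 CPM, Il12b at 606, 227, 661 and 85.3 CPM and Cd40 at 485, 412, 355 and 317 CPM. NT was the highest of the 4 for Cd274 and Cd40 and lay inside the RT range for Il12b, and RT3 was the lowest for all 3 genes. In the stricter gate RT3 was the highest for Cd40, at 617, 558, 439 and 746 CPM, so the order of the libraries for this gene depended on the gate. None of 8 MHC class II genes met the rule, with a median of -0.71, and H2-Aa had a mean log2 ratio of -1.01 against -2.24 in macrophages. None of 9 interferon response genes did, with a median of 0.55. Ccl5, at 1110.3, 5545, 3005 and 1705 CPM, was higher in each RT library with a mean of 1.44 ± 0.85 (SD, n = 3), and it met the rule in the stricter gate (1.67) but not in the wider one. Of 5 p53 targets Gadd45a was higher and Btg2 lower. In the stricter gate 1 of the 5 met the rule as higher and none as lower, with means of 1.49 for Gadd45a and -0.53 for Btg2. Cdkn1a, the p21 gene, had a mean of 0.22 ± 0.78 (SD, n = 3) in the mature DCs and 2.41 in macrophages. These differences between populations were not tested.

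**Figure D5:**
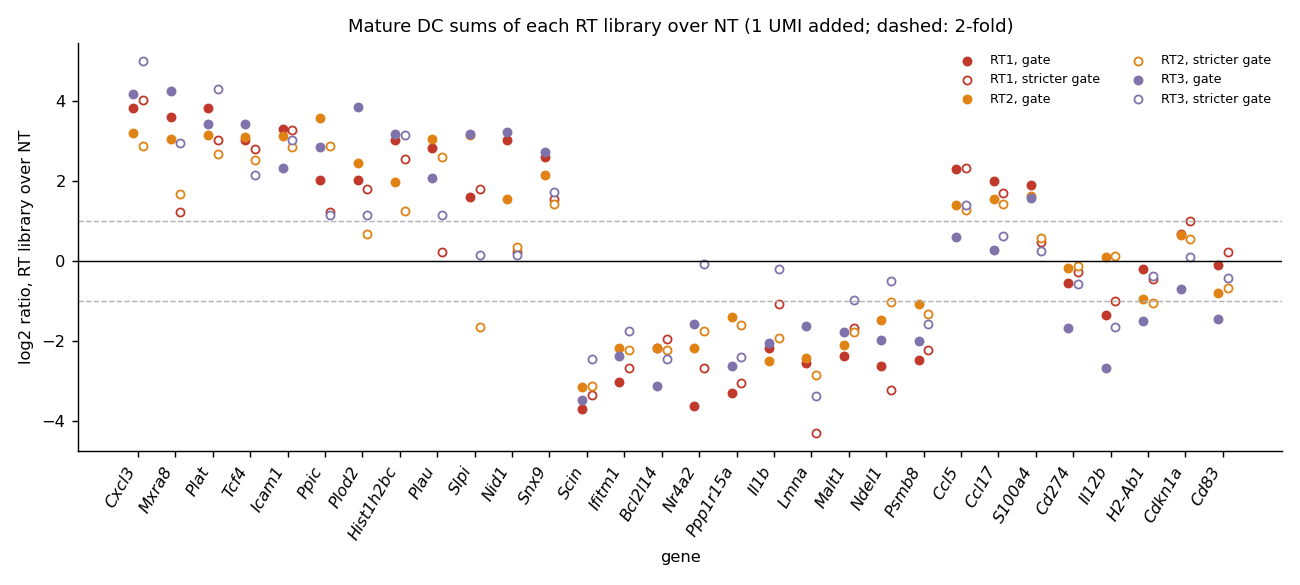
Log2 ratio of CPM in each RT library over NT in mature DCs, with 1 UMI added to each sum, for genes named by the rule of size and 8 further genes. Filled points are the gate, open points the stricter gate and the dashed lines a 2-fold difference; Icam1 lies above the upper line in all RT libraries in both gates, with a mean of 2.93 in the gate.

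The mature DCs were not uniform in MHC class II. The median share of UMIs from 4 class II genes in the stricter gate was 1.10%, 0.548%, 0.577% and 0.544% per barcode, against 4.30%, 3.87%, 3.38% and 4.40% in conventional DCs. Divided at 1%, 32 barcodes of the stricter gate were high and 46 low, and 22 lay between 0.5% and 2%, so the division marks a range and not separate types. Of 114 listed genes 13 were higher in the class II high barcodes in all 4 libraries, among them Ccl17 (136 against 64 UMIs), Il12b and Cxcl9 (101 against 8 UMIs), a Cxcr3 ligand, found in 14 of 32 against 6 of 46 barcodes. Il12b stood at 860, 759, 857 and 627 CPM in high and 304, 57.8, 849 and 44.3 CPM in low barcodes. It had 76 against 64 UMIs, in 11 of 32 against 11 of 46 barcodes. Of the 64 UMIs 60 were in RT2, 35 of them in 1 barcode. The low RT2 group also held the barcode of 27152 UMIs, 38.4% of its sum, which had no Il12b UMI. Without that barcode Il12b in RT2 would be lower in the high barcodes, so its direction there rests on 1 barcode. A further 14 were lower in all 4, among them Samsn1, Traf1, Stat4 and the class I genes H2-K1 and B2m. These 14 include Fscn1, Cacnb3 and Tbc1d4, which the gate used. Some genes take 1 direction in all 4 libraries without any difference, and these counts were not tested. Depth differed in NT, where the median was 4852 UMIs in high and 1023 in low barcodes, and in the opposite direction in RT3, where it was 1088.5 and 1749.5 UMIs, and these values are a description.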

How the data were processed

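Single cells of 4 tumor libraries were profiled with the SeekOne 3′ microwell kit. The authors deposited raw UMI counts per gene and barcode, made with the SeekOne Tools pipeline. The submitters' processing notes name STAR 2.5.1b, featureCounts of Subread 1.6.4, Cell Ranger and the builds GRCm39 and mm39. The thresholds of cell calling are not given in the sources used here.

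Barcodes were filtered and gated as described, without clustering and without a doublet caller, so a doublet was removed only where Cd3, C1q or Rhox5 UMIs exposed it. UMIs were summed per library and gate and fitted with edgeR 4.0.16 in R 4.3.3 (TMM, quasi-likelihood test, Benjamini-Hochberg adjustment), with library as a block because both sums of a pair come from the same library. Named genes were members of the 26 lists, the 12 highest and 8 lowest genes by log2 fold change past the threshold with at least 50 CPM and 1 direction in all libraries, the 12 genes each way with the largest mean log2 ratio past the rule of size, and the 10 genes found most in the gate. The gate, lists and tests were chosen with earlier results of these data known. Intervals are exact (Clopper-Pearson or Poisson) at 95%, with 3 UMIs as the limit that a count of 0 allows.

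In simulated counts for the conventional DC comparison (1745 genes) 96% of genes changed by a log2 fold of 2 and 100% of those changed by 4 were recovered, with 2.97% false calls. For the macrophage comparison (8960 genes) 54% and 85% were recovered, with no false call. Each simulation changed 100 genes per size, as many up as down, and left all others alike in both populations. In the data 28.1% of genes were called against macrophages, and the direction depended on the scaling. The simulated counts did not reproduce this, so their rates do not measure false calls in that comparison. DESeq2 1.42.0, other gates, filters, scalings and libraries left out served as alternatives. Marchf1, Clec7a, Mx1 and Mx2 were not analysed here, and some genes that met the rules are not reported here.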

Additional observations from a re-analysis of the deposited data

Results flagged for a closer look

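In 3 genes every RT library of the mature DCs moved one way against NT and every RT library of another gate moved the other way, and the differences were not tested. Tcf4 had a mean log2 ratio of 3.19 in mature DCs and -0.51 in conventional DCs, a difference of 3.705. With no NT UMI of Tcf4 in mature DCs, both 3.19 and 3.705 depend on the 1 UMI added and are not measured sizes. The RT libraries were at least 2.38, 2.76 and 3.42 times NT. Plau, the urokinase gene, had 2.65 in mature DCs and -0.48 in macrophages, a difference of 3.139. Plau had 1 NT UMI in mature DCs, its RT sum was 13.2-fold above NT with a counting interval of 2.29 to 528, and it did not meet the rule of size in the stricter gate, where it had 0, 0, 18 and 1 UMIs. The interferon-induced membrane protein gene Ifitm1 had -2.53 in mature DCs and 0.49 in conventional DCs, a difference of -3.017.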

How the results depend on the processing

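The difference in share between RT and NT, 0.0259 percentage points, became -0.0473 in barcodes with no UMI of other cell types, -0.0437 with barcodes thinned to 2000 UMIs and -0.120 with the denominator of at most 1 Rhox5 UMI, and was 74.1 mature DCs per 100 conventional DCs. Leaving out 1 RT library each gave 0.0123 to 0.0492. Genes higher than in conventional DCs numbered 221, with 134 without the replicate block, 50 when thinned and 95 to 198 with 1 library left out. Genes lower numbered 164, with 278 without a low count filter, 99 without the block, 35 when thinned and 53 to 152 with 1 library left out. Thinning left fewer genes to test (539 against 1737). Against macrophages, 968 genes higher became 1710 with UMI totals, 345 when thinned, 614 in the stricter gate, 628 in that gate without barcodes above 20000 UMIs, and 492 to 900 with 1 library left out. Genes lower, 1550, became 856 with UMI totals, 988 with DESeq2, 856 when thinned and 1077 to 1435 with 1 library left out. Genes higher in RT, 68, became 17 with at least 100 UMIs, 304 with at least 10 UMIs, 27 in the stricter gate, 21 with no UMI of other cell types, 16 when thinned, 27 in the stricter gate without barcodes above 20000 UMIs and 84 to 96 with 1 RT library left out. Genes lower, 34, became 11, 145, 13, 10, 8 and 9 under the same settings and 49 to 65 with 1 RT library left out. The 100 and 10 UMI minimums and the smaller gates also change how many genes can qualify, and the causes of the other shifts were not tested. Among genes named by rank 651 values stayed, 19 moved, all of RT over NT, and the 2 calls lost were Dusp14 when thinned and Itgam without RT2. None changed sign. A setting can show a lost call only for genes still tested in it. When thinned, these were 86 of the 221 genes higher and 72 of the 164 lower than in conventional DCs. For genes higher in RT they were 12 of 68 when thinned and 29 of 68 in the stricter gate. Genes named from the lists lost calls too, with UMI totals H2-D1 against conventional DCs and Ifi30 and others against macrophages. The settings with barcodes above 20000 UMIs left out and with UMI totals were chosen after seeing the data.

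With 111 barcodes, sums of 48516 to 143763 UMIs and 1 NT library, a count of 0 allowed levels of up to 20.9 to 61.8 CPM, depending on the library, and no spread between unirradiated tumors was available.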

Other observations

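Receptors for the chemokines of the mature DCs were counted in T cell barcodes, those with at least 2 Cd3 UMIs. Ccr4, the receptor of Ccl17 and Ccl22, had a UMI in 2 of 136 T cell barcodes in NT, 0 of 83 in RT1, 0 of 220 in RT2 and 1 of 69 in RT3. Cxcr6, the receptor of Cxcl16, had a UMI in 53 of 136, 28 of 83, 93 of 220 and 18 of 69. The median depth of T cell barcodes was 1560, 1602, 2307 and 1787 UMIs. Ccl19, a ligand of Ccr7, had 1, 0, 25 and 6 UMIs over all kept barcodes.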
